A study of Mus musculus with 10 samples.

Results

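The 10 genes described here are the IL-6 family cytokines Il6, Il11, Lif, Osm and Clcf1, their receptor chains Il6ra, Il6st and Osmr, the transcription factor Stat3 and the feedback inhibitor Socs3. They were found by matching their symbols in GENCODE M21 to the Ensembl identifiers of the 45706 genes in a table of read counts from whole mouse melanomas, and each symbol matched 1 row. All 10 passed the filter on low counts, as did 14550 of the 45706 genes, so none was left untested. Il6 passed it through its Ptgs+/+ libraries: with the Ptgs-/- groups alone it would not have been tested.

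The tumors came from cells of a mouse melanoma line driven by BrafV600E, injected under the skin of C57BL/6 mice that were 8 weeks old, and were taken on day 4. In the Ptgs+/+ group (4 libraries) the cells could make prostaglandins. In the Ptgs-/- group (3 libraries) they lacked Ptgs1 and Ptgs2, the genes for the cyclooxygenases COX-1 and COX-2, after CRISPR/Cas9 editing. In the Ptgs-/- NK-depleted group (3 libraries) the same mutant cells grew in mice whose NK cells were removed by antibodies on days 0 and 2, with 200 µg against NK1.1 and 30 µg against asialo GM1. The labels call the other mice untreated, and name no control antibody. The hosts of all 3 groups carried intact Ptgs genes, so each tumor held COX-competent host cells whatever its cancer cells were. Nothing in the labels ties the numbered libraries to separate mice, so the p-values below measure the spread between these libraries.

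IL-6 family cytokines act through receptor complexes that share the signaling chain gp130, encoded by Il6st. Each cytokine adds its own partner: the IL-6 receptor (Il6ra) for IL-6, the IL-11 receptor for IL-11, the LIF receptor for LIF, and the oncostatin M receptor (Osmr) for oncostatin M. The complex activates JAK kinases, these phosphorylate STAT3, and STAT3 moves to the nucleus and switches on target genes that include Socs3, whose protein binds gp130 and shuts the signal down. In tumors, IL-6 is made by fibroblasts, myeloid cells and some cancer cells, and is known as a product of inflammation that prostaglandin E2 can increase. Phosphorylation of STAT3 is not seen in RNA data, so what follows is about transcripts.

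The libraries held 8150556 to 12839174 counts, and values below are CPM, a gene's counts scaled to a library total of 1000000. Ptgs2 averaged 253 CPM in the 4 Ptgs+/+ tumors (SD 110), and only 43.0 in Ptgs-/- (SD 27.6) and 44.8 in NK-depleted ones (SD 4.56, both n = 3). Ptgs1, the other edited gene, fell less, from 152 CPM in Ptgs+/+ (SD 17.5) to 94.0 in Ptgs-/- (SD 15.0) and 96.5 in NK-depleted tumors (SD 1.24). A 3′ read also counts transcripts that carry an edit upstream, and host cells add their own, so these values are not expected to reach 0. Ncr1, a receptor of NK cells, had 20 to 77 counts per Ptgs-/- library but 0 in every NK-depleted one, where a count of 0 allows up to 3 counts. Summed markers of other cells moved with the groups. For 12 neutrophil genes the sum was 519 to 756 CPM in Ptgs+/+, 134 to 186 in Ptgs-/- and 234 to 278 in NK-depleted tumors. Mmp9 held the most of it in Ptgs+/+ tumors, at 290 CPM on average. Of the 11 tested, 9 were lower and 2 higher in Ptgs-/- than in Ptgs+/+ tumors by log2 fold change. The higher ones were Csf3r (5.4 against 3.38 CPM) and Retnlg (6.75 against 5.41 CPM, and 18.7 in NK-depleted tumors). Ly6g, the defining surface marker of neutrophils, had at most 5 counts in any library. With the groups in the order Ptgs+/+, Ptgs-/- and NK-depleted, the macrophage sum (12 genes) was 1950 to 2310, 3020 to 4670 and 2770 to 3150 CPM. The sum of 12 fibroblast genes was 7940 to 11000, 14100 to 17300 and 11300 to 14200 CPM, led by Col1a1, Col1a2 and Col3a1 (3020, 2700 and 2120 CPM on average in Ptgs+/+). In Ptgs-/- against Ptgs+/+ tumors, 10 macrophage genes were higher and 2 (Cd14 and Msr1) lower by log2 fold change. Of the fibroblast genes 11 were higher and 1 (Pdgfrb) lower. For 10 skeletal muscle genes the sum was 37.7 to 193, 126 to 409 and 2530 to 6080, so the NK-depleted tumors carried the most muscle RNA. Of 9 melanocytic genes, the pigment genes Tyr, Dct, Mlana, Pmel and Tyrp1 had at most 8 counts in any library. The others on that list were read in every group. In the same order, Mitf averaged 21.7, 28.9 and 26.6 CPM and Ednrb 45.8, 57.4 and 53.2. Kit averaged 5.26, 5.34 and 6.73 CPM, and Sox10 2.66, 1.81 and 2.62. In bulk RNA, fewer cells of a type and less RNA per cell cannot be told apart, and the part that these cell types had in the values below was not tested.

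In Ptgs-/- against Ptgs+/+ tumors, 6 of the 10 genes were lower and none was higher: the cytokines Il6, Il11 and Clcf1, the receptor chain Osmr, and Stat3 and Socs3. Called means an adjusted p of at most 0.05 (edgeR's quasi-likelihood test, Benjamini-Hochberg adjustment over the 14550 genes). Of all genes tested, 23.1% were called in this comparison, 1597 of them lower and 1763 higher. The median log2 fold change of the 10 genes was -0.66, beside -0.01 over all genes. Il6 and Il11 also fell by at least 1.5 on the log2 scale, the size the study required of a changed gene, which 1.01% of all genes did. Il6 passed the filter on low counts through its Ptgs+/+ libraries, so with its few Ptgs-/- reads it could enter these counts only as a fall.

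**Figure D1:**
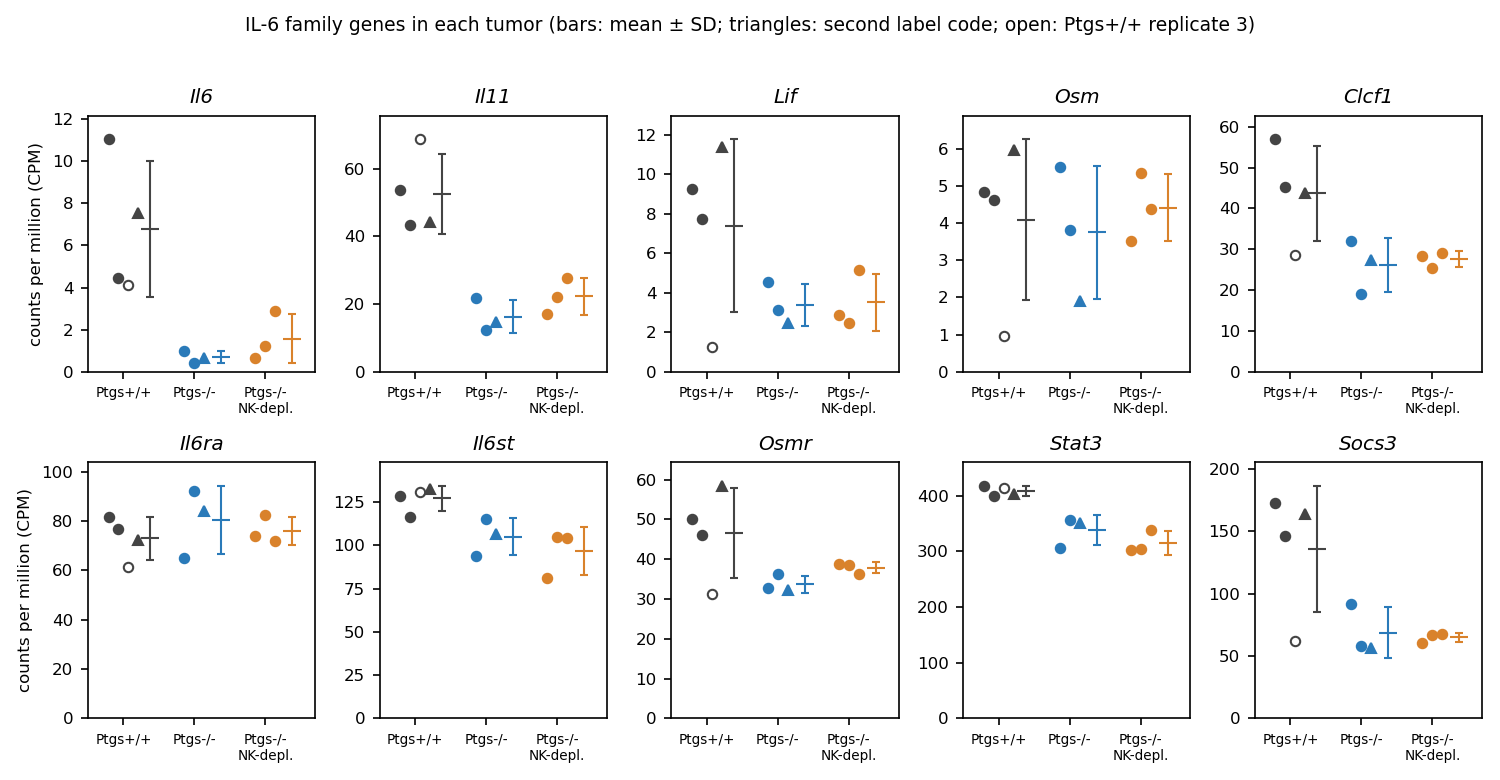
CPM (counts scaled by library total, linear axes from 0) of the 10 IL-6 family genes in each of the 10 tumors, with the mean ± SD of each group beside its points. Il6, Il11, Il6st and Stat3 were lower in every Ptgs-/- and every NK-depleted tumor than in any Ptgs+/+ tumor, and the open circle, Ptgs+/+ replicate 3, was the lowest of its group for Il6, Lif, Osm, Clcf1, Il6ra, Osmr and Socs3 and the highest for Il11.

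Il6 (ENSMUSG00000025746, GRCm38 chr5:30013114-30019981, plus strand), the cytokine that names the family, showed the largest change of the 10. The Ptgs+/+ tumors held 142, 43, 47 and 72 reads of it, or 11.1, 4.43, 4.13 and 7.53 CPM. The Ptgs-/- tumors held 8, 4 and 7 reads, or 0.982, 0.414 and 0.638 CPM. The groups did not overlap, and every count was above the 3 taken here as the limit of detection, but the Ptgs-/- values rest on few reads. Il6 was 10.5-fold lower in Ptgs-/- tumors (log2 fold change -3.39, standard error 0.56, 95% interval -4.61 to -2.17, adjusted p = 0.00157, edgeR). The sequence ahead of the gene is shown because the stretch from 250 bases before to 50 after the start (RefSeq, GRCm38.p6, chr5:30012864-30013163, plus strand) holds letters of 2 of the 4 motifs searched, in capitals: an AP-1 motif (TGANTCA) and an NF-kappaB motif (here GGGATTTTCC).
Il6: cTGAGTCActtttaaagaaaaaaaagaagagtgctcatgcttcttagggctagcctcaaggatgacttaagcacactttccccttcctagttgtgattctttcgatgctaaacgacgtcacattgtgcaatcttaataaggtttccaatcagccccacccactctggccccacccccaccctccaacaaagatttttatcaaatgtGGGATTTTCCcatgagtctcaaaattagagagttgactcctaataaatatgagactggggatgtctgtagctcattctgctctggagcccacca

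The AP-1 match lies at -249 to -243 and the NF-kappaB match at -44 to -35 from the start. Among 32851 promoter windows of the same length, 7.81% hold an AP-1 motif and 0.411% an NF-kappaB motif on either strand. The other motifs searched were a STAT motif (TTCNNNGAA, in 8.3% of windows) and a cyclic AMP response element (TGACGTCA, in 1.79%). The Il6 window holds neither in these letters, but its cgacgtca differs from the cyclic AMP response element in the first letter alone. Such near matches were not searched for. The motifs do not overlap here, and a match is a description of the letters, not a bound site.

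Il11 (ENSMUSG00000004371, chr7:4772373-4782859, minus strand), a cytokine of stromal and epithelial cells, behaved alike with far more reads. It was 53.7, 43.3, 68.8 and 44.2 CPM in the Ptgs+/+ tumors and 21.7, 12.3 and 14.6 CPM in the Ptgs-/- tumors. The lowest Ptgs+/+ tumor lay well above the highest Ptgs-/- one. Il11 fell 3.39-fold (log2 fold change -1.76, standard error 0.24, adjusted p = 0.000604, edgeR). Its window is shown for comparison with Il6, since both genes fell the most; RefSeq gives Il11 a pair of starts, and the one at chr7:4778092-4778391 (minus strand) holds an AP-1 motif at -98 to -92, while the window of the other start holds none of the 4 motifs.
Il11: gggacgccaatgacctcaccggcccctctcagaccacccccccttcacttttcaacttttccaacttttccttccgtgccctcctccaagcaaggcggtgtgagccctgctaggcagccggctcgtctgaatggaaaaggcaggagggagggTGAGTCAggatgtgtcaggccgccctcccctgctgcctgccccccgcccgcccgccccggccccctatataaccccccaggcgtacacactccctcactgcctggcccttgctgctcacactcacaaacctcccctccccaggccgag

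Lif (ENSMUSG00000034394, chr11:4257557-4272514, plus strand), which encodes leukemia inhibitory factor, was 9.27, 7.73, 1.23 and 11.4 CPM in Ptgs+/+ tumors and 4.54, 3.10 and 2.46 CPM in Ptgs-/- tumors. A single tumor, Ptgs+/+ replicate 3, lay below every Ptgs-/- tumor, and the other 3 lay above them all. With all libraries the log2 fold change was -1.20 (standard error 0.56, adjusted p = 0.147, edgeR), and without that tumor it was -1.56 with an adjusted p of 0.00449.

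Osm (ENSMUSG00000058755, chr11:4236420-4241026, plus strand), the gene next to Lif, encodes oncostatin M, a cytokine of neutrophils and macrophages. It was 4.83, 4.64, 0.966 and 5.96 CPM in Ptgs+/+ tumors and 5.52, 3.83 and 1.92 CPM in Ptgs-/- tumors. The groups overlapped throughout, replicate 3 again being the lowest of the Ptgs+/+ tumors. The log2 fold change was -0.19 with a 95% interval of -1.27 to 0.89 (adjusted p = 0.818, edgeR), which leaves room for a fall of the size seen in Socs3.

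Clcf1 (ENSMUSG00000040663, chr19:4214238-4223490, plus strand) encodes cardiotrophin-like cytokine factor 1, a ligand of the receptor for ciliary neurotrophic factor. It was 57.0, 45.4, 28.5 and 43.7 CPM in Ptgs+/+ tumors and 32.0, 19.0 and 27.3 CPM in Ptgs-/- tumors. The groups overlapped at replicate 3, which lay below the highest Ptgs-/- tumor. The log2 fold change was -0.80 (standard error 0.22, adjusted p = 0.0227, edgeR). In GENCODE M21 another protein-coding gene lies over Clcf1 on the same strand, so its reads are assigned with less certainty.

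Among the receptor chains, Osmr was called and Il6ra and Il6st were not in Ptgs-/- against Ptgs+/+ tumors. Il6ra (ENSMUSG00000027947, chr3:89864059-89913196, minus strand) was 81.5, 76.6, 61.3 and 72.1 CPM in Ptgs+/+ tumors and 65.0, 92.0 and 84.2 CPM in Ptgs-/- tumors. The groups overlapped, with a log2 fold change of 0.08 and a 95% interval of -0.22 to 0.38 (adjusted p = 0.702, edgeR). A change of Il6ra as large as that of Il6 lies outside this interval.

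Il6st (ENSMUSG00000021756, chr13:112464070-112510086, plus strand), the shared gp130 chain, was 128, 116, 131 and 133 CPM in Ptgs+/+ tumors and 93.5, 115 and 107 CPM in Ptgs-/- tumors. Every Ptgs-/- tumor lay below every Ptgs+/+ tumor, by a narrow margin. The log2 fold change of -0.33 (standard error 0.11) missed the threshold, with an adjusted p of 0.0565 (edgeR), and 0.0487 by DESeq2.

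Osmr (ENSMUSG00000022146, chr15:6813577-6874969, minus strand) was 50.0, 46.2, 31.3 and 58.5 CPM in Ptgs+/+ tumors and 32.6, 36.2 and 32.4 CPM in Ptgs-/- tumors. Replicate 3 was the lowest of all 7, and the other Ptgs+/+ tumors lay above every Ptgs-/- tumor. The log2 fold change was -0.52 (standard error 0.17) with an adjusted p of 0.0475 (edgeR). That call is fragile: it was lost on leaving out any of 9 of the 10 libraries (adjusted p 0.0664 to 0.165) and held without replicate 3 (log2 fold change -0.67, adjusted p = 0.00164).

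Stat3 (ENSMUSG00000004040, chr11:100885098-100939540, minus strand), the transcription factor that carries the signal, was 418, 400, 413 and 403 CPM in Ptgs+/+ tumors and 307, 356 and 352 CPM in Ptgs-/- tumors. The Ptgs+/+ tumors were close together, and all Ptgs-/- tumors lay below them. The fall was small, 1.26-fold (log2 fold change -0.33, standard error 0.09, adjusted p = 0.0177, edgeR). The gene's end overlaps the end of Stat5a on the opposite strand, and the strand setting of the counting is not given in the sources used here; Stat5a was at 32.5 and 38.9 CPM on average in these groups.

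Socs3 (ENSMUSG00000053113, chr11:117966079-117970047, minus strand), the feedback inhibitor, was 173, 147, 62.0 and 164 CPM in Ptgs+/+ tumors and 92.1, 57.7 and 56.4 CPM in Ptgs-/- tumors. Replicate 3 fell among the Ptgs-/- values and the other Ptgs+/+ tumors lay above them. The log2 fold change was -1.05 (standard error 0.30, adjusted p = 0.0270, edgeR), and -1.29 without replicate 3 (adjusted p = 0.000718). Its window (chr11:117969317-117969616, minus strand) is shown because it is the one member window with a STAT motif, at -154 to -146, in capitals.
Socs3: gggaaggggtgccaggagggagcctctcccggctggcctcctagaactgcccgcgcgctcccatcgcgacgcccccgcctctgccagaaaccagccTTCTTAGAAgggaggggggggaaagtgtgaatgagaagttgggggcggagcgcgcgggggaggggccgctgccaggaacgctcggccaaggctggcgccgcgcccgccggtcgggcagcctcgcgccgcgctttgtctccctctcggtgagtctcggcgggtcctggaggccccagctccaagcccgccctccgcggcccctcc

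RefSeq windows were at hand for 8 of the 10 genes, with Osm and Clcf1 left out. Lif (at -228 to -222) and Osmr (at 4 to 10, past the start) hold an AP-1 motif too, so 5 of the 8 hold some motif, while those of Il6ra, Il6st and Stat3 hold none of the 4. Of these, Stat3 was called in Ptgs-/- against Ptgs+/+ tumors and Il6ra and Il6st were not.

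Every Ptgs-/- tumor lay below every Ptgs+/+ tumor for 4 of the 10 genes (Il6, Il11, Il6st and Stat3), and for none did every one lie above. Of all genes tested, 30.6% had groups that did not overlap in this way, 1812 with the Ptgs-/- tumors below and 2636 with them above. The labels carry a pair of unexplained codes, and Ptgs+/+ replicate 4 and Ptgs-/- replicate 3 hold the second. Among libraries of the first code alone, Il6 (log2 fold change -3.27, adjusted p = 0.0212) and Il11 (-1.73, adjusted p = 0.00721) were called by edgeR. Stat3 (-0.33, adjusted p = 0.0761), Clcf1 (-0.80, 0.0978), Socs3 (-0.79, 0.179) and Osmr (-0.33, 0.283) were then not. The pair with the second code, which no NK-depleted tumor carries, gives no test; there too the Ptgs-/- tumor was the lower for Il6 (0.638 against 7.53 CPM), Il11 (14.6 against 44.2), Stat3 (352 against 403) and Socs3 (56.4 against 164).

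**Figure D2:**
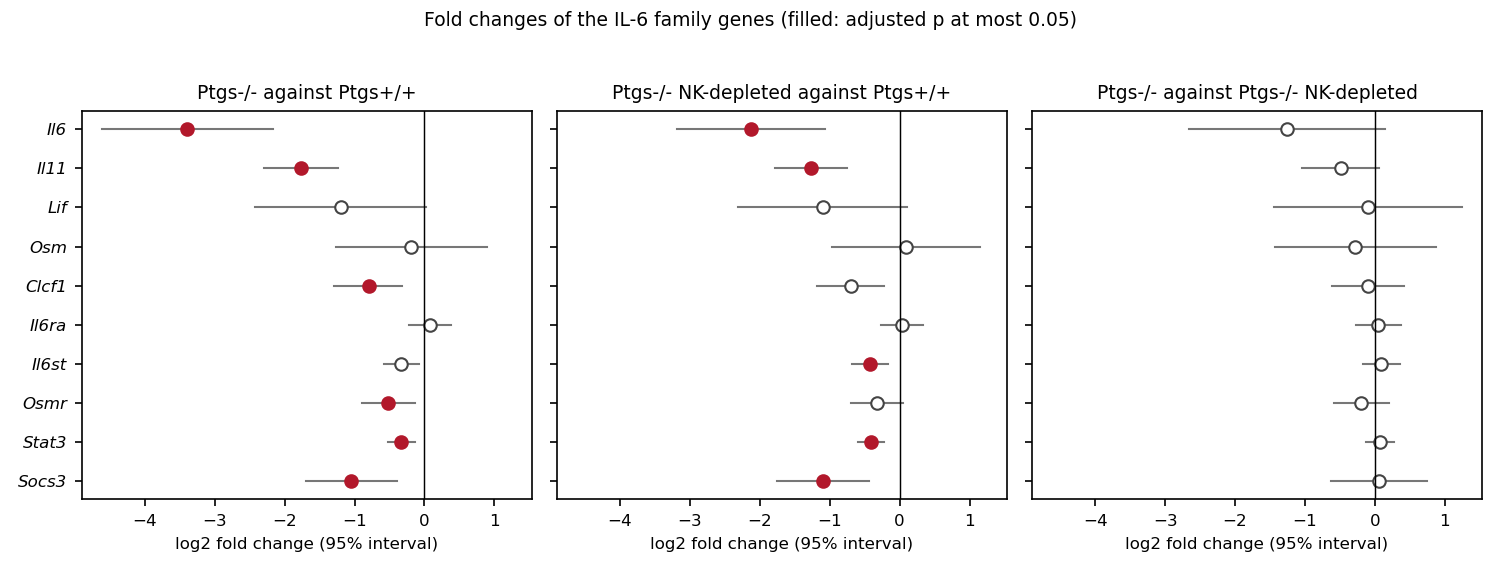
Log2 fold change (points) and 95% interval (lines) of each gene in the 3 comparisons, first group minus second, with filled points for an adjusted p of at most 0.05. Il6 and Il11 stand furthest left in both comparisons with Ptgs+/+ tumors, Osm and Il6ra lie at about 0 there, and no point is filled between the Ptgs-/- groups.

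The second question was whether the genes differed between Ptgs-/- tumors of mice with and without NK cells. None of the 10 genes was called in either direction (edgeR), nor did any have an unadjusted p under 0.05. DESeq2 called none either, with an unadjusted p under 0.05 for 1 gene, Il6. Of all genes, 1.44% were called, 134 of them lower and 75 higher with NK cells. The median log2 fold change of the 10 genes was -0.10.

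Il6 was 0.642, 1.20 and 2.88 CPM in the NK-depleted tumors, from 6, 13 and 29 reads. The lowest of them overlapped the Ptgs-/- tumors and the others lay above. The log2 fold change of Ptgs-/- against NK-depleted tumors was -1.26 with a 95% interval of -2.66 to 0.14 (adjusted p = 0.517, edgeR), so anything from a small rise to a several-fold fall with NK cells is left inside it. Without NK-depleted replicate 3, the tumor with the most Il6, the log2 fold change was -0.50. Il11 was 17.0, 22.1 and 27.8 CPM after depletion, overlapping the Ptgs-/- tumors at the low end (log2 fold change -0.49, 95% interval -1.04 to 0.06, adjusted p = 0.520, edgeR). NK-depleted replicate 3 was the highest of its group for Il11 as well as for Il6 and Lif.

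The other genes lay closer together. Stat3 was 302, 304 and 339 CPM after depletion and its 95% interval ran from -0.13 to 0.28 on the log2 scale. That of Il6ra, at 74.1, 82.6 and 71.8 CPM, ran from -0.27 to 0.37, and that of Il6st, at 80.8, 105 and 104 CPM, from -0.17 to 0.36. These are the narrowest intervals of the 10 genes. Socs3 was 60.7, 66.5 and 67.4 CPM, with an interval of -0.63 to 0.75. Osmr was 38.7, 38.7 and 36.4 CPM, above all 3 Ptgs-/- tumors, with an interval of -0.59 to 0.20. Clcf1 was 28.3, 25.3 and 29.0 CPM. For Lif, at 2.89, 2.49 and 5.17 CPM, and Osm, at 3.53, 5.35 and 4.37 CPM, the intervals of -1.44 to 1.24 and -1.43 to 0.87 are the widest beside that of Il6, and no difference was detectable at this depth.

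Against Ptgs+/+ tumors, the NK-depleted Ptgs-/- tumors were lower for 5 of the 10 genes and higher for none: Il6, Il11, Il6st, Stat3 and Socs3. Of all genes, 12.5% were called, 854 of them lower and 964 higher. This comparison uses the same Ptgs+/+ libraries as the first, so the pair are not independent. Il6 was 4.39-fold lower (log2 fold change -2.13, standard error 0.49, adjusted p = 0.0147, edgeR), and was the one gene of the 10 to pass the size rule too, as did 0.701% of all genes. Here too Il6 could enter the counts only as a fall, since it passed the filter through its Ptgs+/+ libraries. Il11 was 2.41-fold lower (-1.27, standard error 0.23, adjusted p = 0.00483), Socs3 2.15-fold (-1.10, 0.30, adjusted p = 0.0341), Il6st 1.34-fold (-0.42, 0.11, adjusted p = 0.0327) and Stat3 1.33-fold (-0.41, 0.09, adjusted p = 0.0104). Clcf1 (-0.70, adjusted p = 0.0605), Osmr (-0.32, adjusted p = 0.251) and Lif (-1.10, adjusted p = 0.228) missed the threshold, and Osm (0.09) and Il6ra (0.03) lay near 0. Il6, Il11, Il6st and Stat3 were lower in every NK-depleted than in every Ptgs+/+ tumor. Of all genes, 27.1% had groups that did not overlap, 1746 with the NK-depleted tumors below and 2199 with them above.

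Il6 lost this call without NK-depleted replicate 1 (log2 fold change -1.78, adjusted p = 0.0597) or replicate 2 (-1.97, adjusted p = 0.0699). Stat3 lost it without NK-depleted replicate 1 (-0.38, adjusted p = 0.0588). With the first code alone, Il6 (-2.08, adjusted p = 0.0450), Il11 (-1.34, 0.0110) and Stat3 (-0.41, 0.0306) were called, while Il6st (-0.40, 0.0877) and Socs3, also lower (adjusted p = 0.0837), were not. The NK-depleted tumors are those with the most muscle RNA. The part of muscle RNA in these values was not tested.

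By group mean, the order was Ptgs+/+, then NK-depleted, then Ptgs-/- for Il6, Il11, Lif, Clcf1 and Osmr, with the last 2 groups not called different for any of them. It was Ptgs+/+, Ptgs-/- and NK-depleted for Il6st, Stat3 and Socs3, again with no call between the Ptgs-/- groups. Osm was highest in NK-depleted and lowest in Ptgs-/- tumors, and Il6ra highest in Ptgs-/- and lowest in Ptgs+/+ tumors, with no call between any groups.

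Ptgs+/+ replicate 3 was the lowest of its group for 7 of the 10 genes. Against the mean of the other 3 Ptgs+/+ tumors it held 0.130 times as much Lif, 0.188 times as much Osm, 0.384 times as much Socs3, 0.538 times as much Il6, 0.586 times as much Clcf1, 0.608 times as much Osmr and 0.799 times as much Il6ra. It held 1.46 times as much Il11, and Stat3 (1.02 times) and Il6st (1.04 times) were level. The early response gene Myc, at 2.55 CPM, was also lowest there, beside 25.1 CPM in the highest Ptgs+/+ tumor, as was Nr4a1 at 11.3 beside 96.1 CPM; these were picked after their values were seen. Dixon's test was run on the 10 genes and the 16 named pathway genes, not on Myc or Nr4a1. It flagged none of the 4 Ptgs+/+ tumors, replicate 3 included. Leaving this tumor out raised the number called from 6 to 7 in Ptgs-/- against Ptgs+/+ tumors, Lif being added, and from 5 to 8 in NK-depleted against Ptgs+/+ tumors, where Lif, Clcf1 and Osmr were added. Over all genes the calls rose as well, from 3360 to 3881 and from 1818 to 2116.

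**Figure D3:**
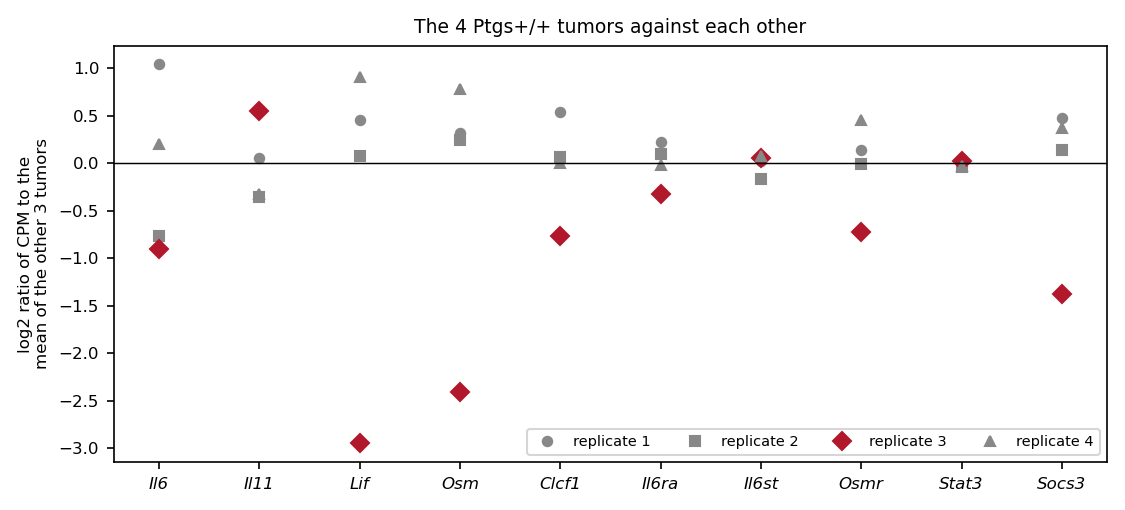
Log2 ratio of each Ptgs+/+ tumor's CPM to the mean of the other 3, for the 10 genes. Replicate 3 (red diamonds) lies at -2.95 for Lif, -2.41 for Osm and -1.38 for Socs3, but at 0.55 for Il11 and near 0 for Il6st and Stat3.

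**Figure D4:**
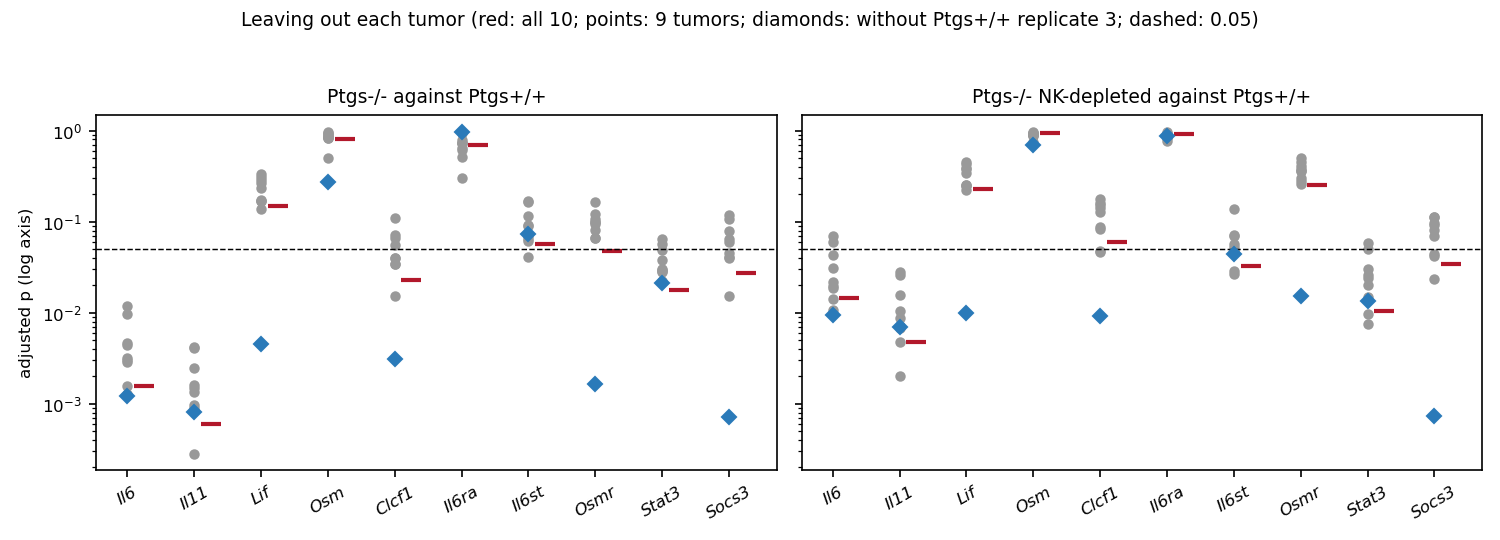
Adjusted p (log axis) of each gene in both comparisons with Ptgs+/+ tumors, with all 10 tumors (red dashes) and with each left out in turn (grey points, and blue diamonds without Ptgs+/+ replicate 3). Il6 and Il11 stay under 0.05 (dashed line) throughout in Ptgs-/- against Ptgs+/+ tumors, and Il11 also in the other comparison, while the remaining called genes cross the line.

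When each of the 10 libraries was left out in turn, Il6 and Il11 were called in Ptgs-/- against Ptgs+/+ tumors in all 10 fits, Stat3 in 8, Clcf1 in 6, Socs3 in 5 and Osmr in 1. In NK-depleted against Ptgs+/+ tumors the numbers were 10 for Il11, 9 for Stat3, 8 for Il6, 5 for Il6st and 4 for Socs3.

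The other genes of the pathway, from lists of 58 genes, did not move as 1 block. The further ligands Il27, Ebi3, Cntf, Ctf1, Ctf2 and Il31 had at most 13 counts in any library, too few to be tested. Of 5 further receptor chains, 3 were tested. Lifr, the LIF receptor, averaged 70.6 CPM in Ptgs+/+ and 92.2 in Ptgs-/- tumors (log2 fold change 0.33, adjusted p = 0.291, edgeR), and Il11ra1, the IL-11 receptor, 246 and 315 CPM (0.30, adjusted p = 0.231). Neither was called in any of the 3 comparisons.

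Il31ra, which pairs with Osmr to receive IL-31, went the other way from the cytokines. It was 1.48, 0.309, 1.23 and 0.837 CPM in Ptgs+/+ tumors, 3.68, 23.1 and 5.02 in Ptgs-/- tumors and 0.428, 1.85 and 1.69 in NK-depleted tumors. In that order the libraries held 3 to 19, 30 to 223 and 4 to 20 reads of it. The lowest thus sits at the limit of detection, and the fold sizes below rest on few reads. All Ptgs-/- tumors lay above all others, replicate 2 far above. It was 10.2-fold higher in Ptgs-/- than Ptgs+/+ tumors (log2 fold change 3.35, standard error 0.68, adjusted p = 0.00479, edgeR), and remained called without that tumor (log2 fold change 2.08, adjusted p = 0.0247). Between Ptgs-/- and NK-depleted tumors it was not called (2.95, standard error 0.73, adjusted p = 0.0907, edgeR), though DESeq2 gave an adjusted p of 0.00188; without Ptgs-/- replicate 2 the edgeR value was 1.68 (adjusted p = 0.364).

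The list of kinases, STATs and inhibitors held 17 genes, counting the proteases Adam10 and Adam17 and the NF-kappaB subunits Nfkb1 and Rela. Of the 17, 4 were higher and 1 lower in Ptgs-/- than in Ptgs+/+ tumors, a share near the 23.1% called of all genes. Adam10, Adam17, Nfkb1 and Rela were not called. The kinases Jak1 and Tyk2, which sit on gp130, rose from 285 to 385 CPM and from 24.6 to 44.8 CPM on average (log2 fold change 0.37, adjusted p = 0.0259, and 0.81, adjusted p = 0.00338, edgeR). Jak2, the third such kinase, was at 75.8 and 69.4 CPM (-0.18, adjusted p = 0.171). The phosphatase Ptpn6 (1.09, adjusted p = 0.000589), abundant in blood cells, and Socs2 (0.68, adjusted p = 0.0291), an inhibitor of growth hormone signaling, rose as well. Pias3, an inhibitor of STAT3, fell by 0.50 (adjusted p = 0.0185). In NK-depleted against Ptgs+/+ tumors, 1 of the 17 was higher (Ptpn6, 0.64, adjusted p = 0.0166) and 2 lower (Jak2, -0.32, adjusted p = 0.0440, and Pias3, -0.48, adjusted p = 0.0340), beside 12.5% called of all genes.

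Of 29 tested genes known as STAT3 targets, 15 were lower and 4 higher in Ptgs-/- than in Ptgs+/+ tumors, beside 23.1% called of all genes. Their median log2 fold change was -0.39. The list was chosen with earlier results of these data known, so its counts describe these genes and are not a test of STAT3 output. Saa1 and Fgb, both among the lower, passed the filter on low counts through their Ptgs+/+ libraries, as Il6 did. They could thus enter these counts only as falls. Saa3, an acute-phase protein of inflamed tissue, was 1300, 768, 722 and 1480 CPM in Ptgs+/+ tumors and 208, 267 and 232 CPM in Ptgs-/- tumors (log2 fold change -2.23, standard error 0.35, adjusted p = 0.0013, edgeR). Timp1, an inhibitor of matrix proteases, was 645, 724, 579 and 587 CPM and 318, 220 and 297 CPM (-1.25, standard error 0.14, adjusted p = 0.000218). Both had no overlap between the groups.

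Others that fell were Hif1a (-0.62, adjusted p = 0.00121), the hypoxia factor, Birc5 (-0.96, adjusted p = 0.00152), the mitotic survival protein survivin, Fosl2 (-0.80, adjusted p = 0.00158), a subunit of AP-1, and Nfil3 (-0.73, adjusted p = 0.00315), a leucine zipper repressor. Among the 4 that rose was Tnfrsf1b (0.80, adjusted p = 0.000966), a receptor for TNF. In NK-depleted against Ptgs+/+ tumors 10 were lower and 2 higher, beside 12.5% called of all genes, with a median of -0.53, and Saa3 (-1.79, adjusted p = 0.00645), Timp1 (-1.02, adjusted p = 0.000734), Hif1a (-0.71, adjusted p = 0.000752) and Nfil3 (-0.89, adjusted p = 0.00164) were among those lower. These genes answer to other factors as well as to STAT3, and the share of each was not tested. None of the 49 tested genes of the pathway lists was called between the Ptgs-/- groups by edgeR (7 had an unadjusted p under 0.05), and 3 were by DESeq2, Il31ra among them.

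**Figure D5:**
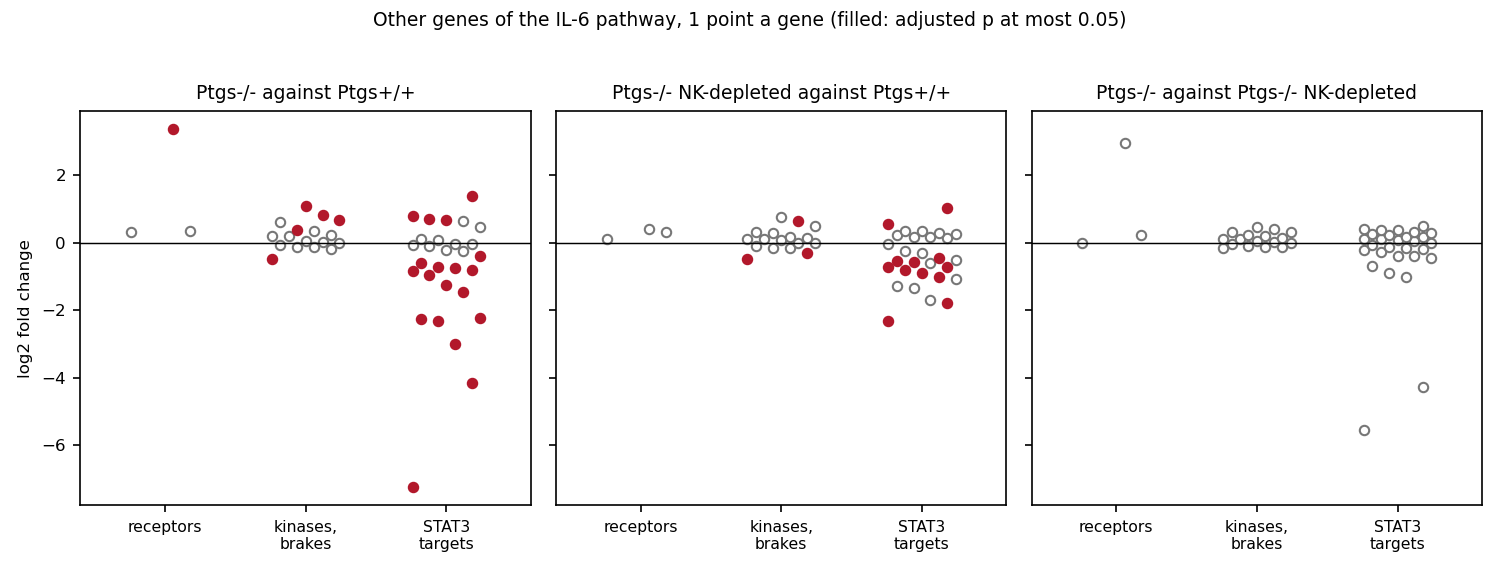
Log2 fold changes of the tested receptors (3), kinases and brakes (17) and STAT3 target genes (29) outside the 10, 1 point a gene, filled for an adjusted p of at most 0.05. Target genes lie mostly below 0 against Ptgs+/+ tumors while the receptors and 4 of 5 filled kinases and brakes lie above 0 in Ptgs-/- tumors; the lowest point, the fibrinogen chain Fgb, rests on 1, 0 and 1 reads in the Ptgs-/- tumors, so its place is not a measure of size.

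A further list of 11 tested genes held inducers of Il6, genes of the prostaglandin pathway and genes that respond to cyclic AMP. Of these, 6 were lower and 2 higher in Ptgs-/- than in Ptgs+/+ tumors, beside 23.1% called of all genes. In NK-depleted against Ptgs+/+ tumors 5 were lower and 1 higher, beside 12.5%. This list too was chosen with earlier results of these data known, so its counts are a description. Ptgs2, which the editing targeted, is among the lower genes of both comparisons, so its place there is not independent of the design. What lowered its reads was not tested. None of the 11 genes was called between the Ptgs-/- groups by edgeR (2 had an unadjusted p under 0.05), beside 1.44% of all genes.

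The genes whose levels followed Il6 most closely over the 10 libraries, by Pearson's r of log2(CPM + 1) among the genes tested, were 2010005H15Rik (0.963), Gm5483 (0.953), Cxcl1 (0.944), Dnttip2 (0.941) and Ptx3 (0.937). Cxcl1, a chemokine that draws neutrophils, averaged 22.9, 3.84 and 7.22 CPM in Ptgs+/+, Ptgs-/- and NK-depleted tumors, and Ptx3, a soluble pattern recognition protein, 79.3, 21.2 and 21.0 CPM. For Socs3 they were Rdh11 (0.981), Lats2 (0.965), Lhfp (0.962), Cebpd (0.961) and Notum (0.959), of which Cebpd is also on the STAT3 target list. For Osm they were Ppp2cb (0.969), Rbm18 (0.962), Rpl22l1 (0.961), Nucb1 (0.961) and Cul2 (0.956). These values describe the 10 libraries, which share group and depth differences, and Ptgs+/+ replicate 3 is the lowest of its group for Osm and Socs3.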

How the data were processed

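RNA from whole day 4 tumors was made into libraries with the QuantSeq 3′ mRNA kit (FWD), which reads transcript ends. The authors trimmed the reads (BBDUK, fqtrim, cutadapt), ran STAR against GRCm38, used featureCounts to count reads per Ensembl gene, and deposited raw counts; the labels also name bcl2fastq and edgeR. Strand and multimapping settings are not given in the sources used here. Of the 45706 identifiers, 45143 had a name in GENCODE M21.

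Counts were tested in 1 model of 3 groups over all 10 libraries with edgeR 4.0.16 (R 4.3.3) after filterByExpr and TMM scaling, by the quasi-likelihood F test with Benjamini-Hochberg adjustment over 14550 genes. CPM values use library totals, fold changes the TMM scaling. DESeq2 1.42.0 was an alternative, beside other scalings, filters and tests, other sample sets, the label code, the replicate number and each library left out. The fit was tested on simulated data. Figures and correlations used Python 3.11.15.

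All 10 genes were named, with the other family ligands and receptors tested, Jak1, Jak2 and Tyk2, and, per comparison, up to 6 called genes of the smallest adjusted p in each of the kinase and brake and STAT3 target lists; of the likeness ranking, the first 5 for Il6, Osm and Socs3. Some pathway genes are not reported here, and the list counts leave them out. The genes and lists were chosen with earlier results of these data known. Totals of 8150556 to 12839174 counts put 3 counts, the limit of detection used, at 0.234 to 0.368 CPM, for counting error only; the sources do not mention molecular identifiers. Ptgs+/+ replicate 4 is a second library numbered 2 in its title. Replicates differed by more than sampling noise (chi-square per degree of freedom 7.71 to 32).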

Additional observations from a re-analysis of the deposited data

How the results depend on the processing

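The number of the 10 genes called was 3 with the compared groups fitted alone and 2 with the first label code alone (Ptgs-/- against Ptgs+/+, 6 as reported). In NK-depleted against Ptgs+/+ tumors it was 3 with the first code and 3 with the code as a term, for 5 as reported. Requiring a log2 fold change of 1.5 left 2 and 1, and of the pathway lists 7 (of 25 called) and 2 (of 15). Leaving out 1 library gave 2 to 7 of the 10 genes in the first comparison and 1 to 8 in the other, and 6 to 18 of the listed genes in the other. Between the Ptgs-/- groups the lists had 3 calls with DESeq2, without a filter or by the likelihood ratio test, 1 with those groups alone, and 0 to 2 with 1 library left out. The log2 fold changes that turned sign were all uncalled. In Ptgs-/- against Ptgs+/+ tumors Osm was 0.40 with the first code alone and -0.58 to 0.18 over the fits leaving out 1 library, and Il6ra was -0.02 to 0.21. In NK-depleted against Ptgs+/+ tumors these fits gave -0.24 to 0.31 for Osm, -0.04 to 0.09 for Il6ra and -0.01 to 0.27 for Lifr. Between the Ptgs-/- groups they gave -0.37 to 0.30 for Lif, -0.67 to 0.08 for Osm, -0.28 to 0.09 for Clcf1, -0.05 to 0.18 for Il6ra, -0.02 to 0.16 for Il6st, -0.22 to 0.21 for Socs3, -0.18 to 0.08 for Il11ra1, -0.03 to 0.44 for Lifr, -0.09 to 0.08 for Pias3, -0.72 to 0.10 for Saa3 and -0.24 to 0.06 for Fosl2. There the first code alone gave 0.12 for Lif, 0.08 for Osm, 0.06 for Il11ra1 and 0.06 for Fosl2, library size alone 0.001 for Il11ra1 and 0.01 for Pias3, and upper quartile factors and a filter of 10 counts in 3 libraries 0.0042 and 0.0012 for Pias3. The causes were not tested. Of the 599 values of the 10 genes under the alternatives, 517 stayed on their side of the threshold with their direction. Il6 could not be fitted with the Ptgs-/- groups alone.

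Deviations of same-numbered libraries of different groups correlated at -0.191 to 0.355, and those of differently numbered ones at -0.426 to 0.166. The ranges overlap, though the highest value was of a same-numbered pair. The replicate numbers were taken to name libraries and not to pair them, and a pairing cannot be told from these values. With the replicate block, 5, 0 and 4 of the 10 genes were called (Ptgs-/- against Ptgs+/+, Ptgs-/- against NK-depleted and NK-depleted against Ptgs+/+ tumors), Osm was 0.10 in the first and Socs3 -0.0034 in the second, and Osmr in the first (-0.38) and Socs3 in the third (-0.90) were no longer called.

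Depth limits Il6, Lif and Osm most, with 4 to 142 counts a library, and 3 or 4 libraries a group limit all 10.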
